A study of Mus musculus with 8 samples.

Results

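The small nucleolar RNA (snoRNA) host genes described here are Taf1d, Gas5, Snhg1, Snhg3, Snhg5, Snhg6, Snhg8 and Snhg12, matched by gene symbol in the deposited tables. They were chosen by their counts in GF-HFD against GF-ND retinas in these same libraries, so their diet difference is given as a description and carries no test. The tables list 55213 genes, all 8 host genes among them, and 7 of the 8 were among the 26900 genes with at least 10 counts over all libraries. Whole retinas were taken from germ-free (GF) male C57B1/6 mice, raised without microbes, and RNA was sequenced with 1 library per mouse. The GF-HFD group was 4 mice (numbers 13, 15, 16 and 19) given a high-fat diet with 23% saturated fat, and the GF-ND group was 4 mice (numbers 9, 10, 11 and 12) given a normal diet. Both groups were germ-free, ate their diet for 8 weeks from 7 weeks of age and were 15 weeks old at collection. No germ-colonized mice were analysed here, so each value describes diet in germ-free mice only.

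A snoRNA is a short RNA of the nucleolus that pairs with ribosomal RNA and guides its chemical modification or its cleavage. Most mammalian snoRNAs are cut out of introns of a host transcript. Many hosts encode a protein, while the spliced RNA of noncoding hosts is often broken down by nonsense-mediated decay. Many hosts begin with a run of pyrimidines, the 5′TOP motif shared with the messenger RNAs of ribosomal proteins, whose translation follows the growth signals of the mTOR pathway.

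The first bases of the host transcripts are shown because this run sets many hosts apart from other genes. RefSeq start sites (GRCm38.p6) were found for 7 of the 8 host genes, with 2 sites for Gas5, and Snhg6 had no entry. Each window holds 20 bases before the start and 10 from it, written 5′ to 3′ in the sense of the transcript. Capitals mark the longest unbroken run of C or T whose last base lies in the final 5 bases before the start or after them.
Taf1d, chr9:15306194-15306223 (+ strand): gcccaccaacgtgtactcacgcgagaTTTC
Gas5, upstream start, chr1:161034581-161034610 (+ strand): cgccaagggggcgggCCCgcgagctcgaca
Gas5, downstream start, chr1:161035146-161035175 (+ strand): gactcagccgccatctcagCCTTTCggagc
Snhg1, chr19:8723467-8723496 (+ strand): cacacgttgttcttgtcggcctcaTTTTTC
Snhg3, chr4:132353677-132353706 (- strand): aggcatagtcgaccacgcctgaCTTCCggg
Snhg5, chr9:88522888-88522917 (- strand): aaaaggagctgcggtgaaccgggCTCgttc
Snhg8, chr3:123508327-123508356 (- strand): tgcgcgcaccgttcagaagTCTCTTTggct
Snhg12, chr4:132308658-132308687 (+ strand): gtgcaggccgttctcagTCCTTTCTCgctt
A run of at least 5 bases was found at 5 of the 8 starts, against 32.9% of 32851 promoters in the same table. The longest was 9 bases at Snhg12, beginning 3 bases before the start, and Snhg8 had 7 bases beginning 1 base before it. Taf1d, Snhg5 and the upstream Gas5 start held runs of 3 or 4 bases. The runs of Taf1d and Snhg1 reach the last base of the window and may be longer than shown. A run of letters is a description of the window and does not show that a transcript is regulated through it.

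The GENCODE vM21 annotation (GRCm38) places 35 snoRNAs inside the 8 host genes: 9 in Gas5, 8 each in Taf1d and Snhg1, 4 in Snhg12, 2 each in Snhg3 and Snhg5, and 1 each in Snhg6 and Snhg8. Examples from 7 hosts are shown because they are the cargo that gives these genes their name. In C/D snoRNAs, which guide methylation of ribose, capitals mark TGATGA in the first 20 bases and CTGA in the last 20. In H/ACA snoRNAs, which guide the change of uridine to pseudouridine, capitals mark ACA placed 3 bases before the end.
Gm24299 in Taf1d, chr9:15314074-15314144 (+ strand): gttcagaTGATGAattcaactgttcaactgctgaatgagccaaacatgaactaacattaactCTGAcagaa
Gm24455 in Taf1d, chr9:15313802-15313932 (+ strand): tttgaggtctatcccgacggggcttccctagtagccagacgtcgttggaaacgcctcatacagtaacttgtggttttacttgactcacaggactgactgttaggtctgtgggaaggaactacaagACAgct
Snord47 in Gas5, chr1:161038082-161038158 (+ strand): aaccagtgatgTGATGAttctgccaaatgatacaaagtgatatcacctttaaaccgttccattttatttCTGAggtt
Snord80 in Gas5, chr1:161037601-161037681 (+ strand): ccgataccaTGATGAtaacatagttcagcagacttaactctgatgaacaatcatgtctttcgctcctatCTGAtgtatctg
Gm24452 in Snhg1, chr19:8724531-8724602 (+ strand): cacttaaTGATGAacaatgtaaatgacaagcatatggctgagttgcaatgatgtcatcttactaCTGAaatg
Snord50a in Snhg5, chr9:88521529-88521600 (- strand): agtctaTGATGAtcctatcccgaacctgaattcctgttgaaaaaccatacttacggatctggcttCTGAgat
Snord87 in Snhg6, chr1:9942463-9942549 (- strand): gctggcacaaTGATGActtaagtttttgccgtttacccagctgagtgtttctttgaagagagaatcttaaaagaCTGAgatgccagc
Snora24 in Snhg8, chr3:123507937-123508066 (- strand): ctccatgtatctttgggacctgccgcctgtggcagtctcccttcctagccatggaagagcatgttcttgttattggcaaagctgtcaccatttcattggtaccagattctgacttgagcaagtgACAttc
Snord99 in Snhg12, chr4:132310691-132310764 (+ strand): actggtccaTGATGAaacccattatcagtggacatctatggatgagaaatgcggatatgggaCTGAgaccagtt
Snora61 in Snhg12, chr4:132310240-132310369 (+ strand): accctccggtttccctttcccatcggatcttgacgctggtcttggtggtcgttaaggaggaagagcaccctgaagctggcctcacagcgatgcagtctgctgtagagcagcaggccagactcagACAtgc
By these letters 18 of the 35 held the C/D pair, 9 held ACA and 8 held neither. Over 1507 annotated mouse snoRNA transcripts, searched in the sense of the transcript, 20.5% held the C/D pair and 18.3% held ACA at that place. Of the 35, 32 lay wholly within annotated exons of a host isoform, so a fragment there can belong to the host or to the snoRNA. Of the 35, 34 were in the tables, and Snord87 was the 1 snoRNA with a value above 0. It had 24 counts over 8 libraries (11 in the GF-HFD group, against 13 in the GF-ND group). The 8 host genes together had 62770. Snord87 lies outside the annotated exons of Snhg6. How fragments within 2 genes were counted is not given in the sources used here, so the host counts may hold fragments of either RNA, and the levels of the snoRNAs are not known from these tables.

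The libraries held 39258006 to 44357518 counts each. Rod photoreceptor markers, which define this tissue, were all detected in every library, and they took 7.14 to 8.80% of counts in the GF-HFD group, against 4.06 to 7.41% in the GF-ND group. Lens markers stood apart in 2 libraries: 1.20% of counts in GF-HFD mouse 19 and 6.91% in GF-ND mouse 11, against 0.0185 to 0.169% in the other 6. The summed level of the 20 lens markers was 229.6 to 12110 CPM (a count divided by its TMM-scaled library size) in the GF-HFD group, against 178.8 to 72420 CPM in the GF-ND group, and Cryge, Crygf or Lenep was at 0 in 5 of the 8 libraries. Mouse 11 also held other transcripts. Its 10 pigment epithelium markers summed to 1511 CPM, against 62.21 to 110 CPM in the other GF-ND retinas and 37.44 to 622.5 CPM in the GF-HFD group. Its 10 fibroblast markers summed to 292.2 CPM, against 14.02 to 83.47 CPM in the other GF-ND retinas and 17.76 to 334.4 CPM in the GF-HFD group. Results on the host genes are given with and without GF-ND mouse 11. In RNA of a whole tissue, fewer cells of a type and less RNA per cell cannot be told apart. Levels between genes are compared only per exonic length.

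Per kilobase of annotated exon, Snhg8 and Gas5 were the most abundant hosts, followed by Snhg12, Snhg6, Snhg5, Snhg1 and Taf1d. Snhg3, with 6 counts in all, is left out of this order because 86.3% of its exonic bases are shared with other genes. Snhg8 stood at 21.6 ± 2.90 CPM per kilobase in the GF-HFD group, against 21.8 ± 6.13 in the GF-ND group, and Gas5 at 17.9 ± 2.10 in the GF-HFD group, against 25.1 ± 14.2 in the GF-ND group (SD, n = 4 each). In the GF-HFD group the gap between them exceeded either SD, and in the GF-ND group it was smaller than the SD of Gas5. Snhg6 had 7.27 ± 0.907 on the high-fat diet (GF-HFD), against 7.39 ± 3.16 on the normal diet (GF-ND), and Snhg5 had 6.20 ± 0.422 in the GF-HFD group, against 6.98 ± 1.02 in the GF-ND group. Again the gap between these neighbours exceeded either SD in the GF-HFD group only, and that between Snhg12 and Snhg6 was within the SD of Snhg12 in the GF-ND group. Taf1d, the protein-coding host, had 2.53 ± 0.206 CPM per kilobase in the GF-HFD group, against 3.71 ± 0.419 in the GF-ND group. Its annotated exons cover 8949 bases, counting isoforms that keep introns, against 853 bases for Snhg8. In Snhg1, Snhg8 and Snhg12 the annotated exons cover the whole gene, against 1146 of 2160 bases in Snhg6. The order of the hosts therefore depends on which isoforms are annotated.

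Taf1d was lower in every GF-HFD retina than in any GF-ND retina, and it was the 1 host gene whose groups did not overlap. The gene (chr9:15306214-15316991, plus strand, GRCm38) encodes a subunit of selectivity factor 1, the complex that brings RNA polymerase I to ribosomal DNA. Its level was 21.7, 21.2, 25.3 and 22.4 CPM in GF-HFD mice 13, 15, 16 and 19, against 33.5, 37.2, 28.2 and 34.1 CPM in GF-ND mice 9, 10, 11 and 12. The highest GF-HFD retina, mouse 16, lay below the lowest GF-ND retina, mouse 11. The group means were 22.6 ± 1.85 CPM on the high-fat diet (GF-HFD), against 33.2 ± 3.75 CPM on the normal diet (GF-ND, SD, n = 4 each). The log2 fold change was -0.55 with a standard error (SE) of 0.11, and -0.62 (SE 0.08) without GF-ND mouse 11.

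Of the 7 host genes in the fit, 1 had groups apart with GF-HFD lower, beside 2.54% of all genes tested, and 0 had groups apart with GF-HFD higher, beside 2.29%. In the fit 1 had an unadjusted p under 0.05 in that direction, beside 4.53%. In both cases the gene was Taf1d, and since Taf1d was proposed from this contrast nothing is read from these counts. At an adjusted p under 0.05, edgeR called 0 of the 7 and 0% of all genes, while DESeq2 called 1 of the 7 (Taf1d) and 0.197% of all genes. Limma-voom called 0% of all genes.

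**Figure D1:**
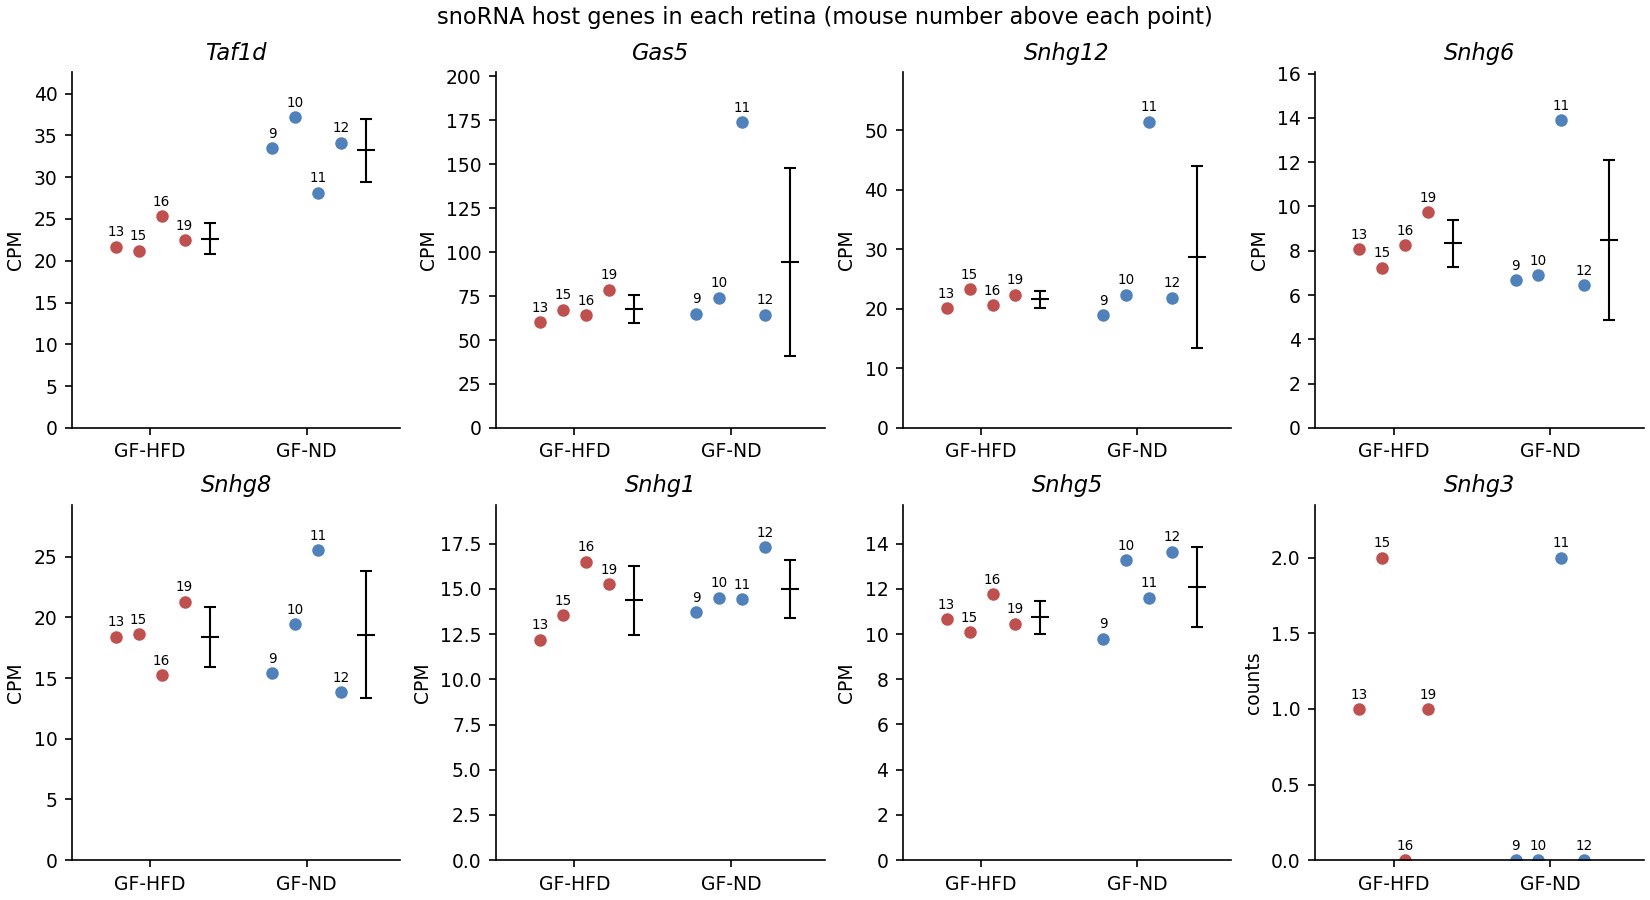
Level of each snoRNA host gene in each retina, as CPM after TMM scaling, or as raw counts for Snhg3. Points are mice with their numbers, GF-HFD left and GF-ND right, and the bar, left out for Snhg3, is the mean ± SD of 4 mice. Taf1d sits at 21.2 to 25.3 CPM in GF-HFD and 28.2 to 37.2 CPM in GF-ND retinas, and GF-ND mouse 11 stands above all others for Gas5, Snhg12, Snhg6 and Snhg8.

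The summed share of 12 nuclear-retained noncoding RNAs was lower in GF-HFD retinas, as Taf1d was. The 12 took 0.231 to 0.294% of counts in the GF-HFD group, against 0.327 to 0.480% in the GF-ND group, with no overlap, and all 12 were detected in every library. Of the 12, 10 had a log2 fold change below 0, among them Meg3 at -1.05 (SE 0.27), while Peg13 had 0.17 (SE 0.08) with no overlap of the groups and Pvt1 had 0.26 (SE 0.38). Gene models labelled TEC, which await experimental proof, took 0.182 to 0.230% in the GF-HFD group, against 0.168 to 0.314% in the GF-ND group, the lowest value being GF-ND mouse 11. Rod markers and most erythroid genes had higher levels in GF-HFD retinas. The 16 rod markers summed to 72080 to 92670 CPM in the GF-HFD group, against 42620 to 70980 CPM in the GF-ND group, with all 16 fold changes above 0 and none of the 16 at 0 in any library. The lowest sum was GF-ND mouse 11, and as shares of counts the groups overlapped. Of the 16, 4 had groups apart and higher, beside 2.29% of all genes. Without mouse 11, 15 of 16 fold changes were above 0. In that fit 1 was higher at an unadjusted p under 0.05, beside 12.1% of all genes. The globin Hbb-bs averaged 13.5 ± 6.34 CPM in the GF-HFD group, against 5.17 ± 2.04 CPM in the GF-ND group. Of the 7 erythroid genes tested 5 had groups apart and higher, beside 2.29% of all genes. The part of any of these in the Taf1d difference was not tested. Neighbouring genes on the opposite strand overlap Taf1d at both ends, and 13.6% of its exonic bases (1217 bases) are shared with other genes. Of these, 235 bases are shared with 4931406C07Rik and 77 with Cep295. The others are shared with snoRNAs and miRNAs inside Taf1d on the same strand. Cep295, a centriole protein at the 3′ end, had 36.5 ± 3.85 CPM on the high-fat diet (GF-HFD), against 36.5 ± 2.97 CPM on the normal diet (GF-ND, SD, n = 4 each). 4931406C07Rik at the 5′ end had 14.2 ± 2.24 CPM in the GF-HFD group, against 13.5 ± 3.64 CPM in the GF-ND group. The log2 fold changes were -0.00050 (SE 0.10) for Cep295 and 0.08 (SE 0.20) for 4931406C07Rik. Only 0.474% of the exonic bases of Cep295 and 2.16% of those of 4931406C07Rik lie in Taf1d exons. Levels of the whole neighbours therefore cannot show what was counted over the shared bases, and the part of the overlap was not tested.

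The partners of the Taf1d protein had smaller fold changes, and 0 of the 20 genes listed for RNA polymerase I and its factors had an unadjusted p under 0.05, beside 4.53% of all genes lower and 2.85% higher. Their median log2 fold change was 0.03, against -0.03 over all genes tested. Without GF-ND mouse 11, 2 of the 20 were lower and 1 was higher at that threshold, beside 11% and 12.1% of all genes. The other subunits of selectivity factor 1 were singled out after their values were seen, and their log2 fold changes lay below 0: -0.11 for Taf1a (SE 0.11), -0.11 for Taf1b (SE 0.11), -0.21 for Taf1c (SE 0.14) and -0.13 for Tbp (SE 0.10). Without mouse 11, Taf1a had -0.19 (SE 0.08) and Tbp -0.22 (SE 0.07), and these were the 2 genes called lower, while Taf1b had -0.12 (SE 0.10) and Taf1c -0.25 (SE 0.13). The edgeR adjusted p was then 0.205 for Taf1a and 0.104 for Tbp. Ubtf, the factor that marks active ribosomal DNA, had 136.3 ± 6.17 CPM on the high-fat diet (GF-HFD), against 135.2 ± 14.8 CPM on the normal diet (GF-ND, SD, n = 4 each).

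Gas5 (chr1:161034422-161038539, plus strand) is a noncoding host known for building up when cell growth stops, and in human cells its RNA binds the glucocorticoid receptor. It had 60.0, 67.2, 64.2 and 78.5 CPM in GF-HFD mice 13, 15, 16 and 19, against 65.0, 74.0, 174.0 and 64.5 CPM in GF-ND mice 9, 10, 11 and 12. The groups overlapped, and GF-ND mouse 11 alone lay far above the rest. Means were 67.5 ± 7.91 CPM on the high-fat diet (GF-HFD), against 94.4 ± 53.3 CPM on the normal diet (GF-ND, SD, n = 4 each). This gave a log2 fold change of -0.48 (SE 0.30). Without mouse 11 the GF-ND mean was 67.8 ± 5.37 CPM over 3 mice and the log2 fold change was -0.0018 (SE 0.09).

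Snhg12 (chr4:132308623-132311024, plus strand), host of Snora16a, Snora44, Snora61 and Snord99, had the same shape. It had 20.1, 23.3, 20.6 and 22.4 CPM in GF-HFD mice 13, 15, 16 and 19, against 18.97, 22.4, 51.5 and 21.9 CPM in GF-ND mice 9, 10, 11 and 12. Every retina but GF-ND mouse 11 lay in 1 narrow band. The log2 fold change was -0.41 (SE 0.28) with all mice and 0.04 (SE 0.10) without mouse 11, where the GF-ND mean was 21.1 ± 1.85 CPM.

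Snhg6 (chr1:9941959-9944118, minus strand) carries Snord87. It had 8.07, 7.24, 8.26 and 9.74 CPM in GF-HFD mice 13, 15, 16 and 19, against 6.68, 6.89, 13.9 and 6.44 CPM in GF-ND mice 9, 10, 11 and 12. Each GF-HFD retina was above 3 of the GF-ND retinas and below mouse 11. The log2 fold change was -0.025 (SE 0.25) with all mice and 0.33 (SE 0.14) without mouse 11, so its sign turned. Mcmdc2, a meiosis gene that overlaps Snhg6 on the opposite strand, had 0.736 ± 0.114 CPM on the high-fat diet (GF-HFD), against 1.35 ± 0.345 CPM on the normal diet (GF-ND, SD, n = 4 each).

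Snhg8 (chr3:123507552-123508404, minus strand) carries Snora24, which in human cells guides pseudouridine formation in ribosomal RNA of the small subunit. It had 18.4, 18.6, 15.2 and 21.3 CPM in GF-HFD mice 13, 15, 16 and 19, against 15.4, 19.4, 25.6 and 13.8 CPM in GF-ND mice 9, 10, 11 and 12. The groups overlapped over most of their range, and mouse 11 was again the highest. The log2 fold change was -0.014 (SE 0.19) with all mice and 0.19 (SE 0.14) without mouse 11.

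In mouse 11 Snhg1 and Snhg5 stood at the level of the other retinas. Snhg1 (chr19:8723475-8726443, plus strand), host of Snord22 and the first known host without a protein product, had 12.2, 13.5, 16.5 and 15.3 CPM in GF-HFD mice 13, 15, 16 and 19, against 13.7, 14.5, 14.4 and 17.3 CPM in GF-ND mice 9, 10, 11 and 12. For Snhg1 the log2 fold change was -0.06 (SE 0.13). Snhg5 (chr9:88521050-88522929, minus strand), host of Snord50a and Snord50b, had 10.7, 10.1, 11.8 and 10.4 CPM in GF-HFD mice 13, 15, 16 and 19, against 9.79, 13.3, 11.6 and 13.6 CPM in GF-ND mice 9, 10, 11 and 12. For Snhg5 the log2 fold change was -0.17 (SE 0.13). Both genes overlapped between the diets, and leaving out mouse 11 gave -0.08 (SE 0.13) for Snhg1 and -0.18 (SE 0.14) for Snhg5.

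Snhg3 (chr4:132348014-132353686, minus strand) carries Snora73a and Snora73b, the U17 snoRNAs needed for cleavage of ribosomal RNA. It had 1, 2, 0 and 1 counts in GF-HFD mice 13, 15, 16 and 19, against 0, 0, 2 and 0 counts in GF-ND mice 9, 10, 11 and 12, and with 6 counts in all it was not in the fit. Its annotated exons share 851 of 986 bases (86.3%) with other genes, 705 of them with Gm17300, a noncoding gene on the opposite strand, 159 with Snora73a and 135 with Rcc1 on the same strand, which encodes the exchange factor of Ran. Some bases are shared with more than 1 of these genes. Gm17300 had 83 counts in all, 45 in the GF-HFD group, against 38 in the GF-ND group. Rcc1 had 15.6 ± 1.47 CPM on the high-fat diet (GF-HFD), against 14.8 ± 1.32 CPM on the normal diet (GF-ND, SD, n = 4 each). Since fragments over shared bases may have been left out or given to another gene, the level of Snhg3 transcript is not known from these counts. For the other hosts 8.32% (Snhg5) to 20.9% (Snhg1) of exonic bases were shared. In Snhg6 all 127 shared bases were with Mcmdc2 and none with Snord87.

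**Figure D2:**
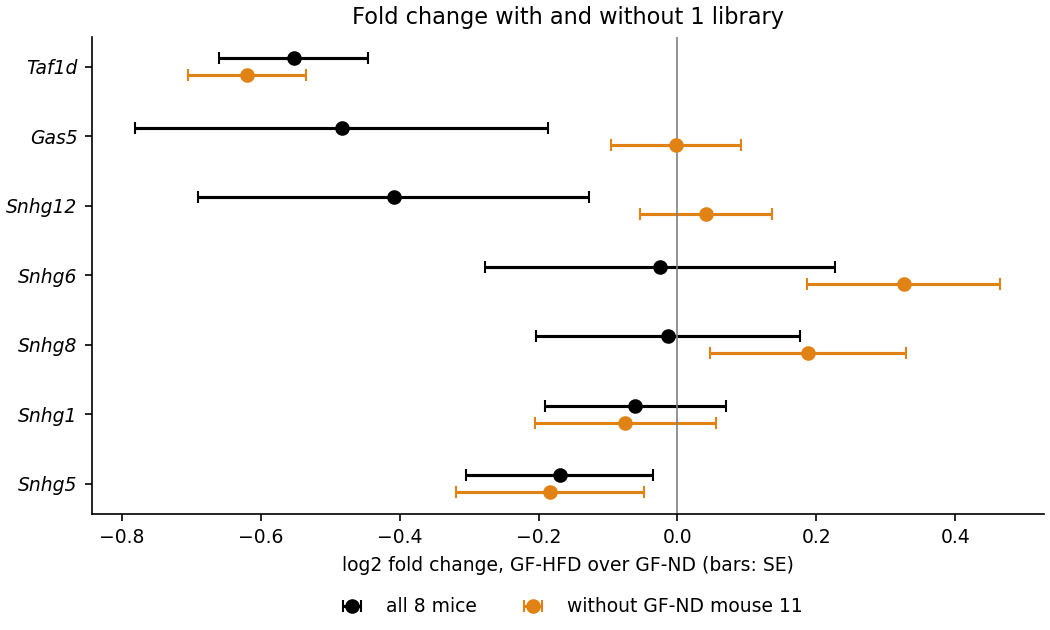
Log2 ratio of GF-HFD to GF-ND levels for the 7 host genes in the fit, with all 8 mice (black) and without GF-ND mouse 11 (orange). Bars are the SE. Taf1d stays at -0.55 and -0.62, while Gas5 and Snhg12 move to -0.0018 and 0.04 and Snhg6 to 0.33.

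With all mice the fold change was below 0 for 7 of 7 host genes in edgeR, beside 53.7% of all genes tested. Among genes annotated as lincRNA or processed transcript the share was 68.4%. The count was also 7 of 7 under 4 other scalings of the same libraries, and 5 of 7 in limma-voom. Without GF-ND mouse 11 it was 4 of 7, beside 12910 of 26338 genes. The median log2 fold change of the 7 host genes was -0.17 (all genes tested: -0.03), and -0.0018 without mouse 11 (all genes: 0.01). Without mouse 11 the fit gave 1 of 7 at an adjusted p under 0.05 (Taf1d, lower), beside 1.6% of all genes. At an unadjusted p under 0.05 it gave 1 of 7 lower (Taf1d), beside 11%, and 1 of 7 higher (Snhg6), beside 12.1%. The host genes were chosen from this contrast, so nothing is read from these counts either.

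Mouse 11 was measured against the mean of the other 7 mice. It was 2.57-fold for Gas5, 2.41-fold for Snhg12, 1.82-fold for Snhg6 and 1.46-fold for Snhg8, and 1.02-fold for Snhg5, 1.01-fold for Taf1d and 0.981-fold for Snhg1. For Taf1d this mean covers both diets, and mouse 11 lay above every GF-HFD retina and below the other GF-ND retinas. Mouse 11 was the highest of 8 for 4 of the 7 host genes, beside 21% of all genes tested, and over 1.5-fold for 3 of 7, beside 16.1%. GF-HFD mouse 19, the other retina with lens transcripts, ranked 2 of 8 for Gas5, Snhg6 and Snhg8 and 4 of 8 for Snhg12. The part of lens, pigment epithelium or other transcripts in these levels was not tested.

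Messenger RNAs of ribosomal proteins were also high in mouse 11. Of 23 ribosomal protein genes that carry snoRNAs, all 23 had their highest level in mouse 11 and 15 were over 1.5-fold, with a median of 1.59-fold. Of the 56 other ribosomal protein genes 48 were highest there and 31 were over 1.5-fold (median 1.54-fold). All ribosomal protein genes together took 0.948 to 1.25% of counts in the GF-HFD group, against 0.787 to 1.53% in the GF-ND group, where the highest value was mouse 11. Coding hosts that are not ribosomal proteins were over 1.5-fold in 4 of 22, beside 16.1% of all genes tested. Core and assembly proteins of snoRNA particles (18 genes), decay factors (16 genes) and RNA polymerase I genes (20 genes) had 0 over 1.5-fold. Lens markers were over 1.5-fold in 20 of 20, with a median of 41.1-fold, and rod markers in 0 of 16, with a median of 0.594-fold. Pigment epithelium markers were over 1.5-fold in 6 of 10 (median 2.68-fold) and markers of Mueller glia in 4 of 10 (median 1.28-fold). For fibroblast markers it was 3 of 10 (median 0.618-fold).

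**Figure D3:**
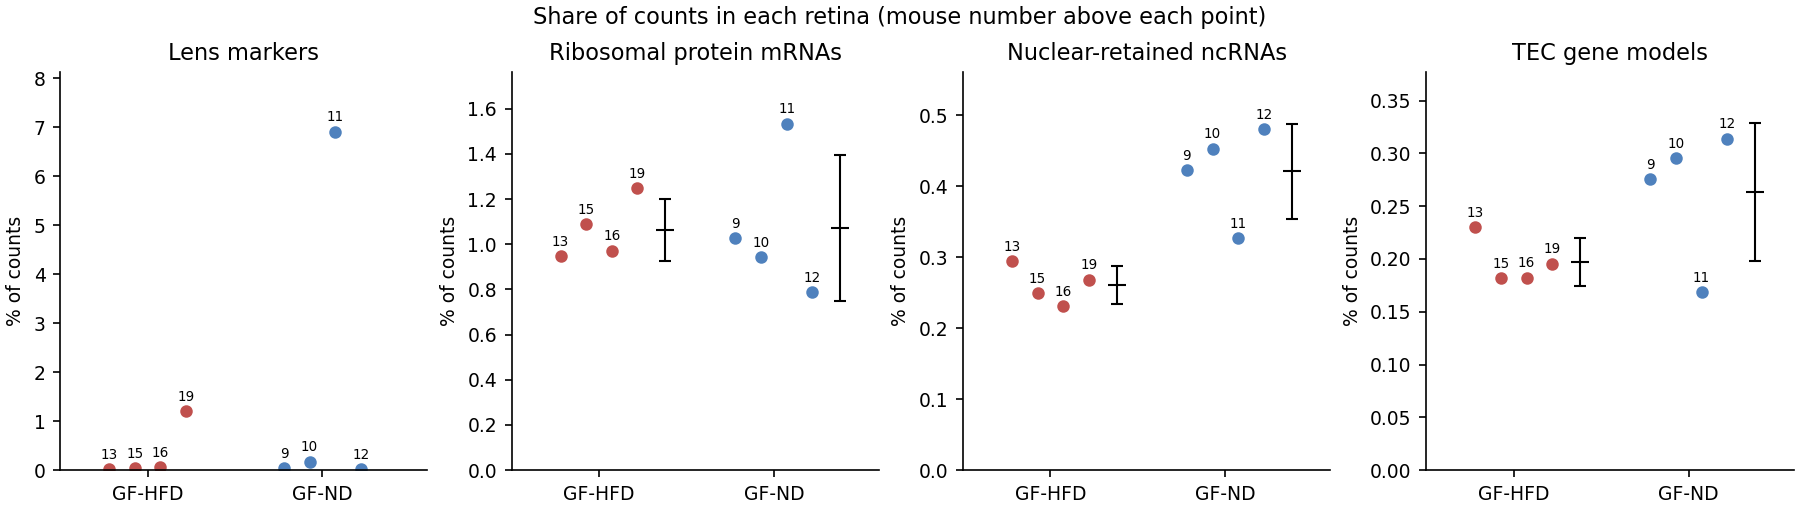
Percent of counts taken by lens markers, ribosomal protein mRNAs, nuclear-retained noncoding RNAs and TEC gene models in each retina, GF-HFD left and GF-ND right. Points are mice with their numbers, and bars are the mean ± SD of 4 mice, left out for the lens. GF-ND mouse 11 is highest for lens (6.91%) and ribosomal protein (1.53%) transcripts, and the diets do not overlap for nuclear-retained RNAs.

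Gas5, Snhg12, Snhg6 and Snhg8 deviated from their diet means together over the 8 mice. After the mean of each diet was taken away, Pearson's r of log2 CPM over the 8 mice was 0.976 for Gas5 with Snhg12 and 0.97 for Gas5 with Snhg6, and without mouse 11 these were 0.60 and 0.671. Gas5 with Snhg8 had 0.862, and 0.742 without mouse 11. Snhg6 with Snhg12 had 0.92, and -0.047 without it, and Taf1d with Gas5 had -0.699, and 0.196 without it. Over all 21 pairs r lay between -0.741 and 0.976 with 8 mice and between -0.425 and 0.742 without mouse 11. With 8 mice 7 pairs were over 0.5 and without mouse 11 it was 6, but not the same pairs. Snhg6 with Snhg8 went from 0.817 to 0.459 and Snhg8 with Snhg12 from 0.804 to 0.428. Taf1d with Snhg1 went from 0.447 to 0.537 and Taf1d with Snhg5 from 0.483 to 0.60. The genes whose deviations were most like the hosts, by mean r over the host genes among 10279 genes, were Cbr4, Herc4, Mios, Hfe, Hdac1, Kat14, Chrnb1, Nnt, Mtmr10 and Arhgef19, at 0.50 to 0.518. Of these 10, 0 were in the same list made without mouse 11. The points share library, depth and mouse, and the values are a description.

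Other noncoding snoRNA hosts with a low p were all lower in GF-HFD retinas. Of 14 tested, 3 had an unadjusted p under 0.05 and were lower in GF-HFD retinas, beside 4.53% of all genes, and 0 were higher, beside 2.85%. Their median log2 fold change was -0.24. Snhg14, the host of an imprinted snoRNA cluster, had 65.7, 61.0, 60.2 and 57.2 CPM in GF-HFD mice 13, 15, 16 and 19, against 84.0, 101.9, 81.9 and 87.7 CPM in GF-ND mice 9, 10, 11 and 12, with no overlap. Snhg11, a neuronal noncoding RNA, had 286.8, 301.3, 460.6 and 250.5 CPM in GF-HFD and 498.6, 1047, 474.7 and 575.2 CPM in GF-ND retinas, also with no overlap. The log2 fold changes were -0.54 (SE 0.09) for Snhg14, -0.998 (SE 0.27) for Snhg11 and -0.42 (SE 0.12) for Rian, a host on an imprinted locus. The edgeR adjusted p was 0.649 for each, so none passed over all genes. Without GF-ND mouse 11 the adjusted p was 0.0232 for Snhg14, 0.0496 for Snhg11 and 0.0422 for Rian, and 7 of the 14 hosts were lower at an unadjusted p under 0.05, beside 11% of all genes, and 1 higher, beside 12.1%.

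These 3 genes are also on the list of nuclear-retained noncoding RNAs, whose summed share was lower in every GF-HFD retina. Of the 12 genes on that list, 7 (Malat1 not among them) had an unadjusted p under 0.05 and were lower, beside 4.53% of all genes, with a median log2 fold change of -0.56. Among other noncoding hosts, mouse 11 was over 1.5-fold for 2 of 14, beside 16.1% of all genes tested: Epb41l4aos at 1.99-fold and Zfas1 at 1.51-fold.

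Genes that make, package or clear the products of host genes had few calls between the diets. Coding hosts that are not ribosomal proteins had 0 of 22 at an unadjusted p under 0.05 (median log2 fold change 0.04), and ribosomal protein hosts had 0 of 23 (median 0.02), beside 4.53% of all genes lower and 2.85% higher. Proteins that form and assemble snoRNA particles had 0 of 18 (median 0.10). Among them Nop58, a C/D core protein whose own gene is a snoRNA host, had 75.4 ± 3.15 CPM on the high-fat diet (GF-HFD), against 69.1 ± 2.22 CPM on the normal diet (GF-ND, SD, n = 4 each). For Ruvbl1, an ATPase of assembly, the log2 fold change was 0.25 (SE 0.11). In nonsense-mediated decay 1 of 16 genes was called lower and 1 higher (median 0.07). The log2 fold change was -0.28 (SE 0.12) for Smg1, the kinase of the pathway, and 0.24 (SE 0.08) for Eif4a3, a part of the exon junction complex. The edgeR adjusted p was 0.649 for both. Without GF-ND mouse 11, 23 of 23 ribosomal protein hosts had a fold change above 0 and 12 had an unadjusted p under 0.05, beside 12.1% of all genes. The other coding hosts then had 3 of 22 lower and 5 higher, the particle proteins 2 of 18 lower and 2 higher, and the decay genes 3 of 16 lower and 2 higher, beside 11% of all genes lower.

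**Figure D4:**
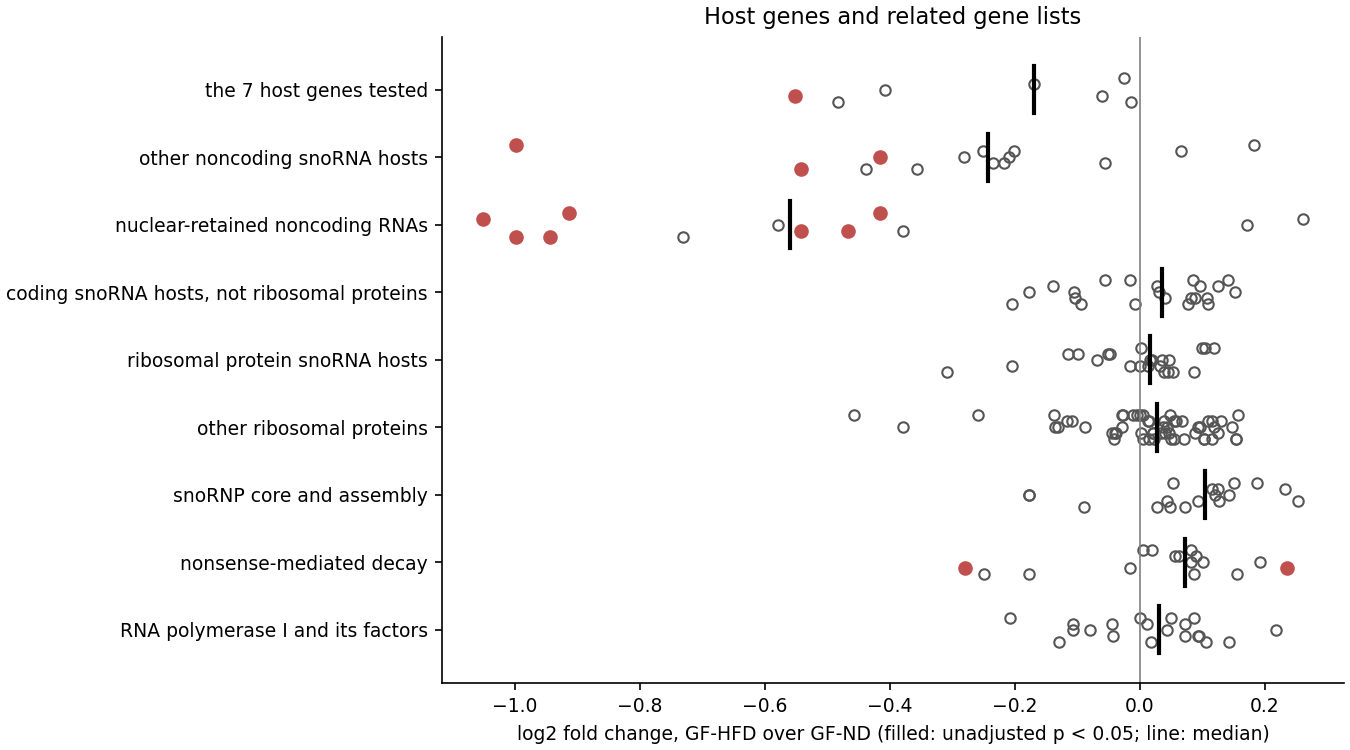
Log2 ratio of GF-HFD to GF-ND levels for the 7 host genes in the fit and for related gene lists, 1 point per gene, over all 8 mice. Filled points have an unadjusted p under 0.05 and vertical lines are list medians, from -0.56 for nuclear-retained noncoding RNAs to 0.10 for snoRNA particle proteins. No gene shown has an edgeR adjusted p under 0.05.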

How the data were processed

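Whole-retina RNA of 8 mice, 1 library each, was prepared with TruSeq RNA kits and sequenced as 100-bp pairs. The authors aligned reads to GRCm38 (mm10) with STAR 2.4.2 and deposited raw counts per gene symbol from featureCounts of Subread 1.4.6-p1. The counts were not scaled or filtered. The paper names GENCODE vM23, while positions here are from vM21. Neither the strand setting nor the treatment of fragments that overlap several genes is given in the sources used here, so overlapping genes are uncertain. Among counts from 1 to 12, even numbers outnumbered odd numbers by 1.91 to 2.36 times. Whether a count is a single read or a read pair is not given in the sources used here. Library totals limit the precision, and a gene with 10 counts in all has a large counting error.

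The diets were compared with edgeR 4.0.16 in R 4.3.3 (quasi-likelihood test with TMM factors on genes that reached 10 counts over 8 libraries, Benjamini-Hochberg adjustment over all genes tested). CPM used TMM-scaled library sizes, and log2 CPM a prior count of 2. The SE was taken from the fold change and the F statistic. The edgeR script was tested on simulated data. Alternatives were other scalings, filters, DESeq2 1.42.0, limma-voom (limma 3.58.1), robust dispersion, and libraries left out. No 2 libraries were identical. Labels give 1 mouse per library and no batch.

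The host genes and all lists were chosen with earlier results of these data known. The text names all host genes, from each list up to 4 genes (the 2 most abundant and the 2 of smallest p, of which some are left out here), the 10 genes most alike in deviation, and snoRNAs with at least 10 counts. The other hosts, partners and overlapping genes were chosen after their values were seen.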

Additional observations from a re-analysis of the deposited data

Results flagged for a closer look

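In 30 groups of 4 retinas, the highest or lowest value was compared with the other 3 by Dixon's test. Chance marks about 1 in 20 such groups, and 6 were marked here, 5 of them for 1 library. GF-ND mouse 11 had 174 CPM of Gas5, against 64.5 to 74.0 CPM in the other GF-ND retinas. It had 51.5 CPM of Snhg12, against 18.97 to 22.4 CPM, and 13.9 CPM of Snhg6, against 6.44 to 6.89 CPM. Lens markers took 6.91% of its counts, against 0.0185 to 0.169% in the other GF-ND retinas. Genes annotated as snoRNAs took 0.00367% of its counts, against 0.00691 to 0.00754%. In GF-HFD mouse 19 lens markers took 1.2% of counts, against 0.0230 to 0.0651% in the other GF-HFD retinas. The 5 marks of mouse 11 come from 1 library and are not independent.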

How the results depend on the processing

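Taf1d, Gas5 and Snhg5 had fold changes below 0 under 19 of 19 alternatives, Snhg1 and Snhg12 under 17 of 19, Snhg8 under 14 of 19 and Snhg6 under 14 of 18. The log2 fold change of Taf1d ranged between -0.62 and -0.50. That of Gas5 ranged between -0.63 and -0.0018, the last without GF-ND mouse 11, with an unadjusted p under 0.05 in 0 of 19. The alternatives reuse the same libraries and are not independent. The all-mouse fit had 0 genes at an adjusted p under 0.05, 1985 at an unadjusted p under 0.05, 1 host gene and 28 genes of the related lists at the unadjusted threshold. DESeq2 gave 53 genes at an adjusted p under 0.05. With at least 10 CPM in 4 libraries, which tests fewer genes, 895 genes and 15 list genes had an unadjusted p under 0.05. Without GF-ND mouse 11 and GF-HFD mouse 19 together, 55 genes had an adjusted p under 0.05, and 4953 genes and 96 list genes an unadjusted one. Leaving out 1 mouse at a time gave 0 to 421 genes at the adjusted threshold, and 1224 to 6067 genes, 1 to 2 host genes and 18 to 129 list genes at the unadjusted one. The highest counts came without GF-ND mouse 11 and the lowest unadjusted ones without GF-HFD mouse 15, and leaving out GF-ND mouse 10 gave 1315 genes. The causes were not tested. Of the genes at an unadjusted p under 0.05, 61.4% were lower in GF-HFD retinas, against 78.1% with library totals in place of TMM factors, 76% with the 10 CPM filter and 47.6% without mouse 11. No paired analysis was possible because the 2 groups share no replicate numbers. Counts of 6 for Snhg3 and 24 for Snord87 are too low to compare diets.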

Other observations

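Several noncoding gene classes had median fold changes below 0 between the diets. Among genes annotated as snoRNAs or scaRNAs, 14 of 224 tested had an unadjusted p under 0.05 and were lower in GF-HFD retinas and 3 were higher, with a median log2 fold change of -0.47. Among TEC gene models 175 of 1859 were lower and 6 higher (median -0.50), and among antisense genes 146 of 1743 were lower and 7 higher (median -0.32). Over all genes tested 4.53% were lower and 2.85% higher, with a median of -0.03. All other annotated snoRNA hosts, 292 of them tested and mostly coding, had 10 lower and 12 higher and a median of 0.0037. Without GF-ND mouse 11 the counts were 24 lower and 1 higher for snoRNAs and scaRNAs, 348 and 11 for TEC models, 268 and 19 for antisense genes and 37 and 59 for the other hosts, beside 11% lower and 12.1% higher over all genes. Regulators of mTOR and 5′TOP translation had 2 of 16 lower and 1 higher, and 5 lower and 2 higher without mouse 11. The RNA-binding proteins Tia1 and Tial1, which bind 5′TOP messenger RNAs, had log2 fold changes of -0.35 (SE 0.14) and -0.29 (SE 0.11). The gene called higher was Rptor, named after its value was seen, at 0.17 (SE 0.07). The edgeR adjusted p was 0.649 for each of these genes. Mtor had a log2 fold change of 0.03 (SE 0.11).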
